A study of Macaca mulatta with 24 samples.

Results

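The genes described are the translation initiation factors (symbols EIF1 to EIF6) and elongation factors (symbols EEF1 and EEF2) of the rhesus macaque nucleus accumbens core (NAcc). They were chosen by symbol alone, and 63 of the 17208 gene symbols measured met the rule. A mean of at least 1 TPM (transcripts per 1000000, a length-corrected share of the signal of all measured genes in a library) over the 24 animals was reached by 59 of them. The other 4 lay below that level and were not tested, namely EIF4E1B (mean 0.36 TPM), EIF3CL (0.27), EIF3C (0.072) and EIF4EBP3 (0.047). EIF3C and EIF3CL are near-identical copies and only uniquely aligned reads had been counted, so their values are uncertain. The symbols EIF2C1 and EIF2C2 are older names of Argonaute genes, which act in RNA silencing, and they enter the EIF2 group only by their spelling.

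RNA had been sequenced from the NAcc core of 24 unrelated adult male rhesus macaques (Macaca mulatta), each measured once. The 16 drinkers had been induced to drink 4% (w/v) ethanol by schedule-induced polydipsia, in which timed pellet delivery establishes drinking, and then had 22 h a day of free choice between ethanol and water for 12 months. The 8 controls went through the same procedures with water from both spouts and received a 10% maltose dextrin solution to match calories. The 8 LD* animals are the light and binge drinkers, with a daily intake of 1.58 ± 0.53 g/kg (mean ± SD, n = 8), and the 8 HD* animals are 4 heavy (HD, 2.92 ± 0.16 g/kg) and 4 very heavy drinkers (VHD, 3.37 ± 0.29 g/kg, n = 4 each). Intakes of HD (2.74 to 3.09 g/kg) and VHD animals (3.09 to 3.78 g/kg) met at a shared value. Tissue was taken without imposed abstinence. There were 4 cohorts. The controls belonged to cohorts 5 (3 animals), 7a (2) and 7b (3), the LD* animals to cohorts 4 (2), 7a (3) and 7b (3), and the HD* animals to cohorts 5 (4) and 7a (4), where HD and VHD were equally represented.

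Initiation begins when EIF2, carrying GTP and the initiator tRNA, joins the small ribosomal subunit together with EIF3, EIF1 and EIF5, while the EIF4 factors bind the cap of the mRNA and bring the subunit to it. The kinases EIF2AK1 to EIF2AK4 phosphorylate EIF2 under stress and slow initiation by blocking its exchange factor EIF2B, and the EIF4EBP proteins hold back the cap-binding protein EIF4E. In elongation EEF1A delivers aminoacyl-tRNA, the EEF1B complex (EEF1B2, EEF1D and EEF1G) recharges it with GTP, and EEF2 moves the ribosome along the mRNA. Many of the mRNAs for elongation factors and ribosomal proteins begin with a 5′ terminal oligopyrimidine (TOP) tract, through which mTOR signalling controls their translation, and in neurons local translation near synapses is part of lasting plasticity.

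The libraries were not equal in cell makeup. The summed level of 10 markers of striatal projection neurons, the main neurons of the NAcc, ran from 739 to 11200 TPM, and none of the 10 was at 0 in any animal. The lowest value belonged to control replicate 6 (cohort 7b), in which the dopamine receptor DRD1 stood at 8.14 TPM against a median of 129 TPM in the 8 controls, and the 7 oligodendrocyte markers summed to 9440 TPM against a control median of 3334 TPM. Values of the members without this animal are given beside the comparisons with controls and between cohorts. Markers of cortical excitatory neurons, which the NAcc core should lack, summed to between 1.39 and 825 TPM per animal. In bulk tissue fewer cells of a type and less RNA per cell cannot be told apart. TPM columns add up to a fixed total, so the read depth behind each value is unknown and no counting error is given. Rescaling by TMM (a trimmed mean of ratios between libraries) moved the median of all genes by more than 0.1 in some comparisons, from -0.12 to 0.00093 on the log2 scale for HD* against controls and from -0.17 to -0.019 for VHD against HD animals. Differences are therefore also read against the median of all genes.

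Mean levels of the tested members ran from 4.17 to 2331 TPM. EEF1A1, the tRNA-delivering elongation factor of most cells, was the most abundant at 2331 ± 598 TPM (SD, n = 24). EEF2, the translocase, followed at 1248 ± 175 TPM, and EIF4A2, a form of the cap complex helicase that is abundant in brain, at 1203 ± 172 TPM. EIF1, which guards start codon choice, stood at 1144 ± 68.2 TPM and EEF1A2, the form of EEF1A used by mature neurons and muscle, at 1118 ± 128 TPM. The ranges of EEF2, EIF4A2, EIF1 and EEF1A2 over the animals overlapped. The least abundant tested members were EIF2AK2 (PKR, the kinase activated by double-stranded RNA; 4.17 ± 1.36 TPM), EIF5A2 (5.04 ± 1.66 TPM) and EIF2C2 (7.44 ± 1.88 TPM). EEF1A1 has many processed pseudogenes, so counting uniquely aligned reads only may lose part of its signal.

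Within complexes the levels were unequal. The helicase EIF4A2 was above EIF4A1 (288 ± 21.2 TPM) in each of the 24 animals, while the cap-binding protein EIF4E reached 40.5 ± 5.86 TPM and the scaffold EIF4G1 83.3 ± 17.3 TPM. Among EIF3 subunits the mean ran from 692 ± 93.6 TPM for EIF3K to 47.8 ± 6.76 TPM for EIF3J, with the core subunit EIF3A at 50.1 ± 9.74 TPM. The 3 subunits of EIF2 had means of 80.7 (EIF2S2), 30.6 (EIF2S3) and 23.6 TPM (EIF2S1). The EIF2 kinases were all low, with EIF2AK1 at 22.6 ± 4.62, EIF2AK4 at 20.2 ± 2.85, EIF2AK3 (PERK, the sensor of the endoplasmic reticulum) at 8.61 ± 2.17 and EIF2AK2 at 4.17 ± 1.36 TPM.

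**Figure D1:**
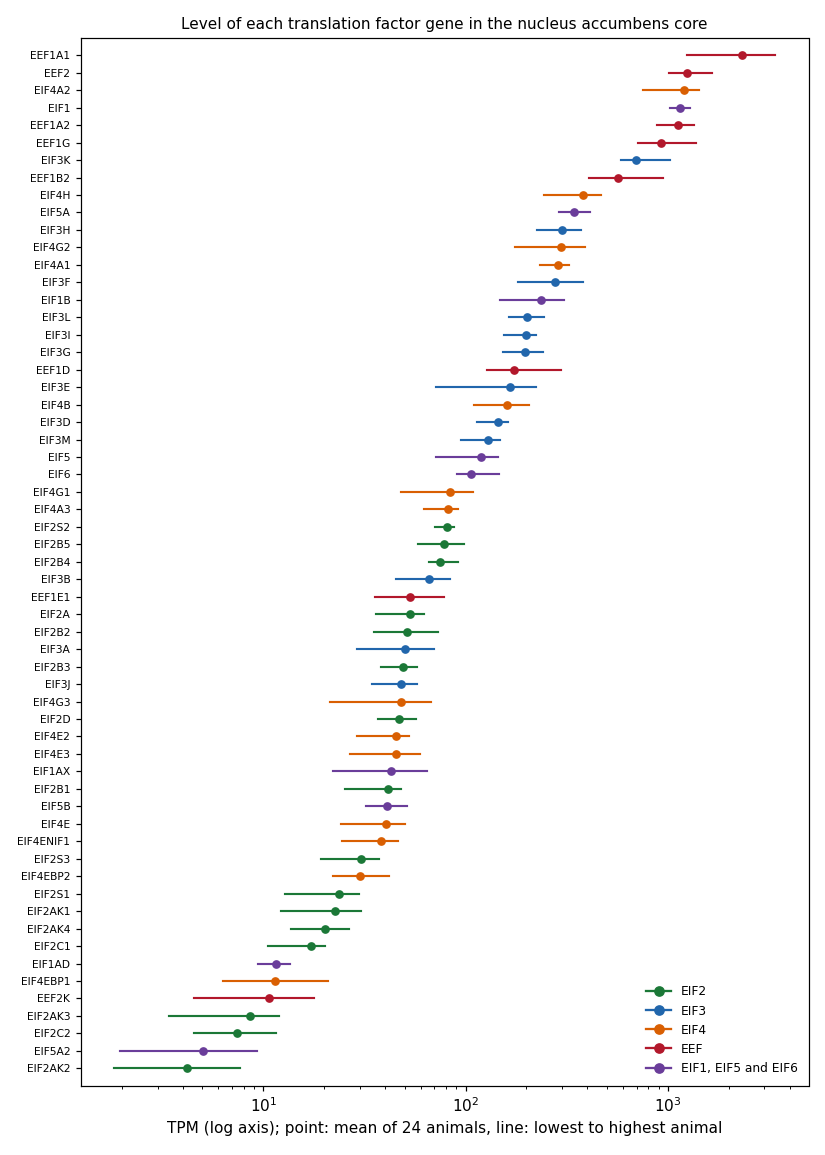
Mean TPM (point, log axis) and range from lowest to highest animal (line) of the 59 tested members in 24 animals, coloured by subfamily. Elongation factors fill 4 of the 6 highest places, with EEF1A1 at 2331 TPM, and the EIF2 kinases lie near the bottom, with EIF2AK2 at 4.17 TPM.

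Most members varied little between animals. The median SD of log2(TPM + 1) over the 24 animals was 0.22 for the 59 members and 0.32 for all 13637 tested genes. A mean of at least 10 TPM was reached by 55 of these members and by 9197 of these genes. The SDs were not matched for level, so the part of abundance in this difference was not tested. The steadiest was EIF2S2, the beta subunit of EIF2 (SD 0.084, range 70.3 to 87.8 TPM). The most variable were EIF4G3, the second EIF4G scaffold (SD 0.44, 21.4 to 67.1 TPM), EIF4EBP1, an inhibitor of EIF4E (0.42, 6.29 to 20.8 TPM), and EIF5A2 (0.39, 1.95 to 9.27 TPM). The members together made up between 1.25% and 1.56% of the summed TPM of a library. A principal component analysis of the 59 members put 56.8% of their variance on the first component and 13.6% on the second. On the first component EIF4EBP1 (0.21), EEF1D (0.19), EEF1A1 (0.19), EEF1B2 (0.18) and EEF1G (0.16) had the highest loadings, and EIF4G3 (-0.30), EIF2AK3 (-0.25) and EIF1AX (-0.21) the lowest.

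For each subfamily a score was formed for each animal as the mean of its members' centred log2(TPM + 1), with 16 members for EIF2, 12 for EIF3, 14 for EIF4, 8 for EEF and 9 for EIF1, EIF5 and EIF6 together. The EEF score ran from -0.23 to 0.33 over the animals. Its highest values were 0.33 in control replicate 8, 0.25 in VHD replicate 3 and 0.24 in LD replicate 5, so an animal without ethanol headed the list. The EIF4 score was lowest in VHD replicate 4 (-0.47), VHD replicate 3 (-0.28), LD replicate 5 (-0.25) and control replicate 8 (-0.17), and the EIF2 score was lowest in the same 4 animals (-0.52, -0.27, -0.20 and -0.25). The summed level of the projection neuron markers in these 4 animals was 5944, 4844, 4458 and 2565 TPM, where the median was 6664 TPM for the controls and 9397 TPM for the HD animals. VHD replicate 2, with 3209 TPM, had an EIF2 score of 0.22, the highest of all animals, and control replicate 6, with 739 TPM, one of -0.014. The part of cell makeup in these scores was not tested. The EIF3 score stayed within a narrower range, from -0.22 in control replicate 6 to 0.12 in LD replicate 8.

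**Figure D2:**
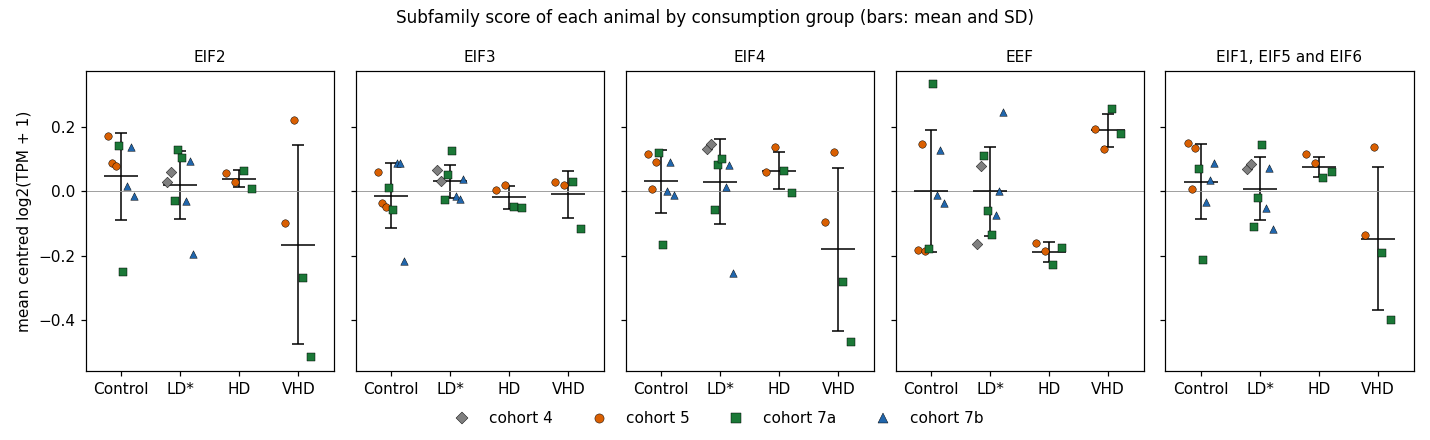
Score of each subfamily (mean centred log2(TPM + 1) over its tested members) for each of the 24 animals, by consumption group; symbols mark the cohort, bars the mean and SD. The EEF scores of the 4 VHD animals (0.13 to 0.25) all lie above those of the 4 HD animals (-0.23 to -0.16), while the EIF2 and EIF4 scores of the VHD animals spread widely, down to -0.52 and -0.47.

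The first question of the design was whether heavy drinkers differ from controls. No member passed an adjusted p of 0.05 between HD* animals and controls (limma, 0 of 59), and no other tested gene did (0 of 13637, 0%). The paper fitted read counts of these animals by DESeq2 and reported many genes at an FDR under 0.05 in this comparison. It also reported a few between HD* and LD* animals. The absence of calls here therefore holds for limma on log2(TPM + 1) only. At an unadjusted p under 0.05 there was 1 member, against 5.68% of all genes, and it was lower in HD* animals, as were 5.29% of all genes. It was EIF5A2, a second form of the elongation and termination factor EIF5A, at 4.10, 5.95 and 7.57 TPM (lowest, median and highest of 8) among controls, and 1.95, 3.92 and 9.27 TPM among HD* animals. The groups overlapped, with the highest single value in an HD* animal, and the log2 difference was -0.39 (SE 0.18, limma adjusted p = 0.71). The next members by p were EIF2S3, the gamma subunit of EIF2 that carries the initiator tRNA (-0.21, SE 0.11), and EIF2AK2 (-0.34, SE 0.18).

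By group, 21 members were higher and 38 lower in HD* animals as deposited (22.2% and 77.8% of all genes), with a median log2 difference of -0.044 against -0.12 for all genes. After TMM rescaling 45 were higher and 14 lower (median 0.091), so the direction of the split depends on the scaling. Here and below, splits by sign after TMM rescaling stand without a share of all genes. So do splits and medians without control replicate 6, and none of these is read as a result about the members. All 3 EIF2 subunits and all 4 EIF2 kinases were lower as deposited, with medians of -0.10 and -0.17, while 3 of the 5 EIF2B subunits were higher. The 3 EIF4G scaffolds had a median of -0.20 and the 5 EEF1 genes of 0.078. None of these reached an adjusted p of 0.05, and the subfamily scores differed by less than their SD over animals (EIF2 -0.11 against an SD of 0.19, EIF4 -0.089 against 0.17, EEF -0.0014 against 0.20). Under TMM the EIF2, EIF4 and EEF score differences turned to 0.018, 0.044 and 0.13. That of EIF3 was -7.8e-05 as deposited, against an SD of 0.081, and 0.13 under TMM. The size of the score differences thus depends on the scaling. Without control replicate 6 no member passed at either threshold, and the median was -0.069. Of the cell markers, all 10 of projection neurons were higher in HD* animals (median 0.42) and all 7 of oligodendrocytes and 6 of astrocytes lower (oligodendrocyte median -0.36), and their part in the members' values was not tested. Within cohorts the median difference was -0.024 in cohort 5 and -0.072 in cohort 7a. The HD* effect was also compared between these cohorts by an interaction term, and no member passed (0 of 59 at an adjusted and 0 at an unadjusted p under 0.05, where 0% and 2.16% of all genes passed).

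Light and binge drinkers were compared with controls in the same fit. No member passed (0 of 59 by adjusted p, 0% of all genes). By unadjusted p 0 of 59 passed, where 2.84% of all genes did, 2.54% lower in LD* animals. There were 36 members higher and 23 lower (41.9% and 58.1% of all genes), and 44 and 15 after TMM rescaling. Without control replicate 6 the split was 27 higher and 32 lower. EIF5A2 again had the smallest p, at 3.30, 4.19 and 6.47 TPM in LD* animals (-0.33, SE 0.18, limma adjusted p = 0.9999). EIF3D, the EIF3 subunit that can itself bind caps, had a difference of 0.13 (SE 0.076), and EIF3F, another EIF3 subunit, one of 0.21 (SE 0.13). The LD* comparison shares its 8 controls with the HD* comparison, so the similar values of EIF5A2 are not independent. The median over members was 0.017 against -0.025 for all genes, and -0.0019 without control replicate 6.

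Between HD* and LD* animals no member passed either (0 of 59 by adjusted p, 0% of all genes). By unadjusted p 0 of 59 passed, where 1.08% of all genes did, and the values of the groups overlapped in every member (0.00733% of all genes did not overlap, higher in HD* animals). As deposited 15 members were higher and 44 lower in HD* animals (26.7% and 73.3% of all genes), with a median of -0.068 against -0.084 for all genes, and after TMM rescaling 35 were higher and 24 lower. The members with the smallest p were EIF2AK4 (GCN2, the amino acid starvation kinase; -0.18, SE 0.11), EIF4E2, a cap-binding relative of EIF4E that represses translation (-0.16, SE 0.096), and EIF5, which triggers GTP hydrolysis by EIF2 (-0.17, SE 0.12).

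The secondary question was whether VHD animals differ from HD animals. As deposited, 4 members were called higher in VHD animals and 2 lower. These calls changed with the scaling and with single animals, as given below. Of the 59 members 6 passed an adjusted p of 0.05 (10.2%), where 14.6% of all genes did. The 4 that rose were EEF1A1, EEF1B2, EEF1D and EEF1G (6.78% of members), where 3.23% of all genes rose. The 2 that fell were EIF4H and EIF3B (3.39% of members), where 11.4% of all genes fell. At an unadjusted p under 0.05 there were 9 higher and 13 lower members (37.3% of members, 32.7% of all genes), where 8.08% of all genes were higher and 24.6% lower. In 16 members the 4 VHD and 4 HD values did not overlap, 8 in each direction (27.1% of members, 23.3% of all genes), where 5.39% of all genes were higher and 17.9% lower without overlap. By sign alone 18 members were higher and 41 lower (34.8% and 65.2% of all genes), and 34 and 25 after TMM rescaling.

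EEF1A1 stood at 2128, 1933, 1550 and 1671 TPM in HD replicates 1 to 4 and at 2926, 2343, 3404 and 3254 TPM in VHD replicates 1 to 4. Every VHD value lay above every HD value, the log2 difference was 0.71 (SE 0.16, limma adjusted p = 0.017), and the VHD animals of cohort 7a (replicates 3 and 4) had the highest values. The controls covered 1244 to 3366 TPM, nearly the whole range of both groups.

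EEF1B2, the exchange factor that returns GTP to EEF1A, stood at 524, 428, 478 and 427 TPM in HD animals and at 730, 606, 877 and 699 TPM in VHD animals. It rose by 0.64 (SE 0.14, limma adjusted p = 0.015), with no overlap. EEF1G, the gamma subunit of the same complex, stood at 827, 795, 800 and 724 TPM in HD animals and at 1117, 939, 1138 and 1384 TPM in VHD animals. Again all VHD values were higher (0.53, SE 0.14, limma adjusted p = 0.029).

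EEF1D, its delta subunit, stood at 130, 151, 128 and 171 TPM in HD and at 181, 180, 256 and 296 TPM in VHD animals (0.63, SE 0.18, limma adjusted p = 0.038). The nearest values, 171 TPM in HD replicate 4 and 180 TPM in VHD replicate 2, lay close together. EEF2, the translocase, stood at 1133, 1100, 1049 and 1041 TPM in HD and at 1435, 1189, 1420 and 1659 TPM in VHD animals. These groups did not overlap, but the difference of 0.39 (SE 0.13) missed the threshold (limma adjusted p = 0.069). EEF1A2 and the EEF2 kinase EEF2K had differences of -0.16 (SE 0.14) and -0.082 (SE 0.29), and EEF1E1, which belongs to the aminoacyl-tRNA synthetase complex, one of 0.36 (SE 0.20).

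EIF4H, an RNA-binding helper of the EIF4A helicase, stood at 414, 456, 447 and 429 TPM in HD and at 333, 334, 276 and 245 TPM in VHD animals. All 4 VHD values were lower and the log2 difference was -0.56 (SE 0.13, limma adjusted p = 0.019). EIF3B, a scaffold subunit of the EIF3 core, stood at 68.2, 77.7, 83.5 and 75.7 TPM in HD and at 59.0, 54.7, 46.3 and 50.8 TPM in VHD animals. It fell by 0.53 on the log2 scale (SE 0.14, limma adjusted p = 0.025), also without overlap.

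**Figure D3:**
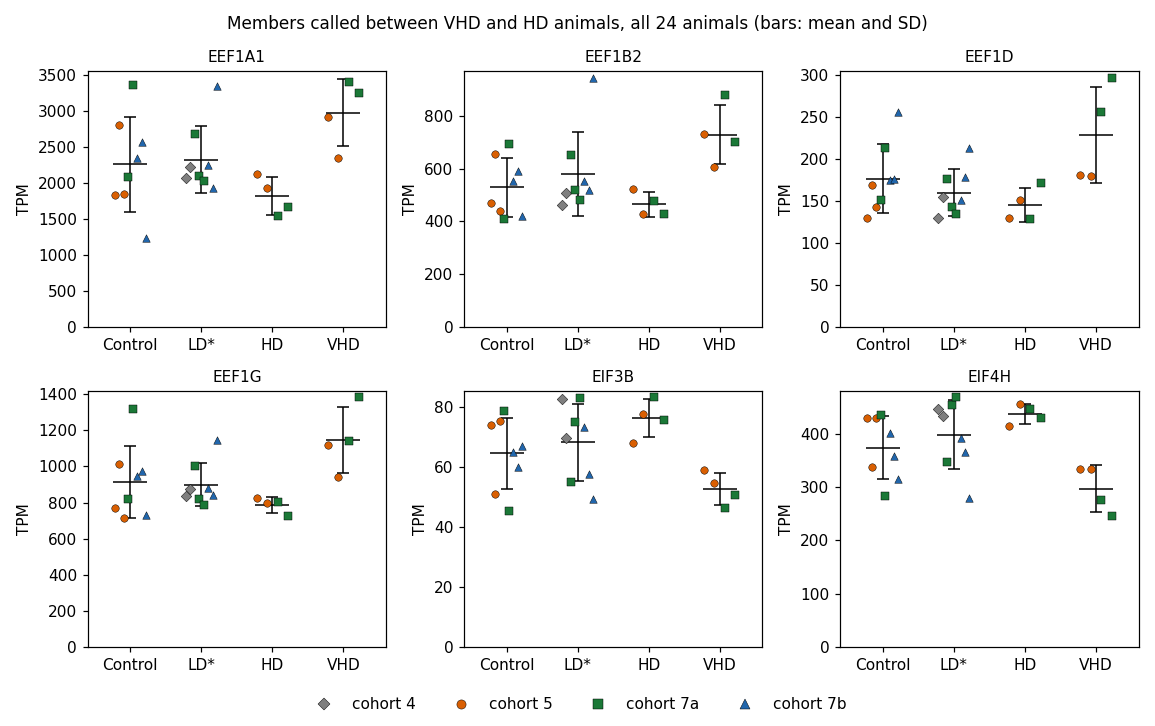
TPM of the 6 members with an adjusted p under 0.05 between VHD and HD animals, shown for all 24 animals by consumption group; symbols mark the cohort, bars the mean and SD. In each panel the 4 VHD and 4 HD values are separate, and controls and LD* animals span much of both ranges, although VHD values lie outside them for EIF4H (245 and 276 TPM, lowest other animal 279 TPM), EEF1G (1384 TPM), EEF1D (256 and 296 TPM) and EEF1A1 (3404 TPM).

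Several other factors lay below HD animals without passing. EIF4G3 had the lowest difference of the members, at 51.8, 55.0, 57.4 and 54.0 TPM in HD and at 37.2, 52.6, 21.4 and 21.4 TPM in VHD animals (-0.80, SE 0.25, limma adjusted p = 0.052). VHD replicate 2 lay within the HD range and the other 3 well below it. EIF4G1 (-0.56, SE 0.18) and EIF3A (-0.54, SE 0.19) were also lower without passing. Among the EIF2 kinases EIF2AK3 (-0.63, SE 0.26) and EIF2AK1 (the heme-regulated kinase; -0.56, SE 0.23) had an unadjusted p under 0.05, while EIF2AK2 (-0.18, SE 0.31) and EIF2AK4 (-0.040, SE 0.21) did not. EIF2B5, the catalytic subunit of EIF2B, had a difference of -0.33 (SE 0.14).

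By subfamily, 6 of 8 EEF members were higher, with a median of 0.46, and 11 of 14 EIF4 members (median -0.21), 14 of 16 EIF2 members (-0.18) and 8 of 9 EIF1, EIF5 and EIF6 members (-0.19) were lower, against a median of -0.17 for all genes. EIF3 was split, 6 higher and 6 lower (median 0.022), with EIF3F (0.40), EIF3K (0.34) and EIF3H (0.27) at the top and EIF3A and EIF3B at the bottom. The EIF4, EIF2 and EIF1, EIF5 and EIF6 medians were thus close to that of all genes, and the EEF median lay 0.63 above it. Under TMM the EIF2 and EIF4 score differences went from -0.20 and -0.24 to -0.037 and -0.068, and that of EEF from 0.38 to 0.55. The TOP list held 10 tested members. Those that rose were the same 4 EEF1 genes named above, and none fell. By sign 8 were higher and 2 lower (median 0.40), and the 49 tested members outside that list had a median of -0.16. Of 81 tested cytosolic ribosomal protein genes 67 rose and none fell, with a median of 0.79. Of all genes 3.23% rose and 11.4% fell. The mean ribosomal protein score was -0.38 to -0.19 in HD and 0.085 to 0.74 in VHD animals.

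**Figure D4:**
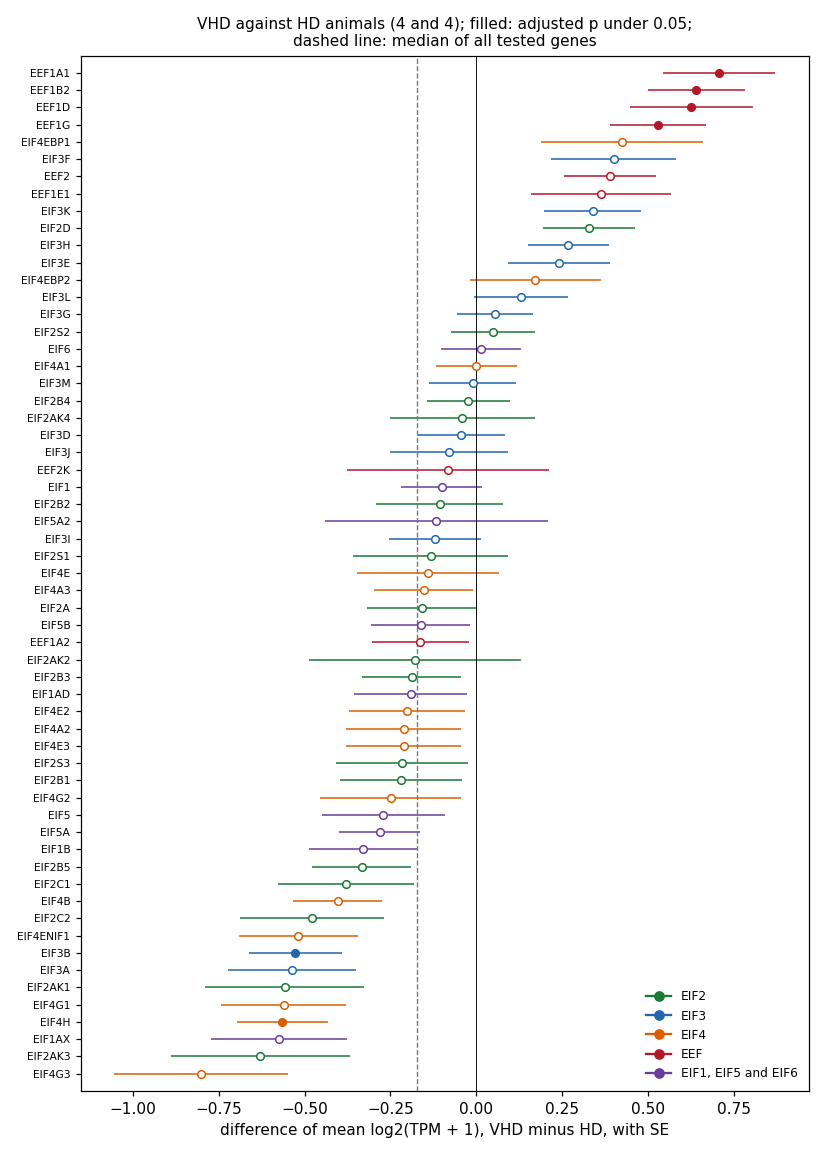
Difference of mean log2(TPM + 1) between 4 VHD and 4 HD animals with its SE for each of the 59 tested members, coloured by subfamily; filled points have an adjusted p under 0.05 and the dashed line is the median of all 13637 tested genes (-0.17). The 4 filled EEF points lie between 0.53 and 0.71, and the filled EIF4H and EIF3B points at -0.56 and -0.53.

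Cell markers separated the same 8 animals. All 10 projection neuron markers were lower in VHD animals and 9 of them fell at an adjusted p under 0.05 (median -1.15), with sums of 3209 to 5944 TPM in VHD and 8675 to 10250 TPM in HD animals. The 6 astrocyte markers were all higher (1 rose; sums of 3917 to 6570 against 1769 to 3253 TPM), and 5 of 6 microglia markers were higher (3 rose). Oligodendrocyte markers were split, 4 higher (1 rose) and 3 lower, and the 3 tested endothelial and 4 cortical excitatory markers were all lower without passing. With the projection neuron score as a covariate, chosen after seeing the data, no member passed (0 of 59; 8 at an unadjusted p under 0.05), and EEF1A1 had a difference of 1.13 (limma adjusted p = 0.35). That score does not overlap between the groups, so it and the group cannot be told apart in that fit. The part of cell makeup in the 6 calls was not tested. With the oligodendrocyte score as a covariate 6 members passed. These counts of 8 and 6 stand without a share of all genes, so they are not read as results about the members.

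The calls changed with single animals. Without VHD replicate 2, 24 members passed (34.1% of all genes), and without VHD replicate 3 or HD replicate 4 none did (3.49% and 5.30% of all genes). Without HD replicate 2 only EEF1A1 passed (4.99% of all genes), and without HD replicate 3 only EEF1B2 (4.45%). The share of all genes thus moved with the same animals. The scaling also mattered, since after TMM rescaling 7 members passed (3 higher, 4 lower; EEF1B2, EEF1E1, EIF2D, EIF3A, EIF4ENIF1, EIF4G1 and EIF4G3), where 19.4% of all genes did, and only EEF1B2 was among the 6. After centring each animal on its median 5 passed (4 higher, 1 lower), where 20.1% of all genes did. The splits by direction under these scalings stand without a share of all genes and are not read as results about the members. The 6 called members kept their direction under both scalings. Under TMM the differences of EEF1A1 (0.89), EEF1D (0.81) and EEF1G (0.71) were larger than as deposited. Their limma adjusted p was 0.052, 0.063 and 0.068. Those of EIF4H (-0.39) and EIF3B (-0.35) were smaller, with a limma adjusted p of 0.055 and 0.10. After median centring EEF1A1 and EEF1B2 still passed (limma adjusted p = 0.042 and 0.026). EEF1D and EEF1G (each 0.056), EIF4H (0.096) and EIF3B (0.19) did not. Within cohorts, with 2 animals against 2, the median over members was -0.0070 in cohort 5 (29 higher, 30 lower; 0.0065 for all genes) and -0.29 in cohort 7a (17 higher, 42 lower; -0.36 for all genes). EEF1A1 differed by 0.37 in cohort 5 and 1.05 in cohort 7a, EEF1B2 by 0.49 and 0.79, EIF4H by -0.38 and -0.75, and EIF3B by -0.35 and -0.70.

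Intake was also used as a continuous measure in the 16 drinkers, from 0.47 to 3.78 g/kg a day. No member had a slope with an adjusted p under 0.05 (0 of 59, 0% of all genes), and none had an unadjusted p under 0.05 (6.65% of all genes, 1.49% with higher and 5.16% with lower values at higher intake). By sign 19 slopes were positive and 40 negative (27.5% and 72.5% of all genes), and 32 and 27 after TMM rescaling. EIF4B, another cofactor of the EIF4A helicase, had the smallest p, with -0.13 on the log2 scale per g/kg (SE 0.066, limma adjusted p = 0.51), followed by EIF5 (-0.13, SE 0.065) and EIF4E2 (-0.11, SE 0.058). EEF1D had a slope of 0.16 (SE 0.088) and EIF4G1 of -0.17 (SE 0.092). The median slope was -0.053 for members and -0.068 for all genes. With cohort as a covariate 24 members reached an unadjusted p under 0.05, 3 with higher and 21 with lower values at higher intake, where 29.4% of all genes did, and the smallest adjusted p was 0.13. That split by direction stands without a share of all genes, so it is not read as a result about the members.

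Cohort was tested with the 3 groups held in the fit. No member passed an adjusted p of 0.05 (0 of 59, 0% of all genes), and 4 had an unadjusted p under 0.05 (8.36% of all genes). These were EIF4E, EIF1AX (a scanning factor of the small subunit), EIF4EBP1 and EIF2S3, and without control replicate 6 none remained. In the fitted differences cohorts 7a and 7b lay below cohort 5 for EIF4E (-0.33 and -0.31) and EIF1AX (-0.44 and -0.55), and above it for EIF4EBP1 (0.45 and 0.73).

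The controls of cohorts 5 and 7b, which had no ethanol, were compared alone. No member passed at an adjusted p of 0.05 (0 of 59, 0% of all genes) or an unadjusted one (0 of 59, 6.23% of all genes), and the 3 and 3 values did not overlap in 11 members (18.6% of members, 17.3% of all genes). EIF1AX stood at 64.5, 44.6 and 57.6 TPM in cohort 5 and at 41.6, 41.7 and 30.1 TPM in cohort 7b (-0.54, SE 0.24). EIF4EBP1 stood at 6.29, 11.1 and 6.99 TPM in cohort 5 and at 10.6, 12.8 and 18.7 TPM in cohort 7b (0.72, SE 0.33), so that a pair of values crossed. EEF1D stood at 129, 168 and 143 TPM in cohort 5 and at 175, 176 and 255 TPM in cohort 7b (0.45, SE 0.22). Control replicate 6 gave the value of cohort 7b farthest from cohort 5 in all 3 genes. Without it the differences were -0.39 for EIF1AX, 0.51 for EIF4EBP1 and 0.27 for EEF1D, and no member passed at either threshold (0% and 2.10% of all genes). With control replicate 6 included, projection neuron markers were all 10 lower in cohort 7b (median -1.44) and oligodendrocyte markers all 7 higher (median 0.95). None of these markers passed an adjusted p of 0.05, and their part in the members' values was not tested.

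Pairs of related genes were also compared within animals, as differences of log2(TPM + 1), in which the scaling of a library largely cancels. Of 21 tests (7 pairs, 3 group comparisons, two-sided exact permutation test over animals) none had an adjusted p under 0.05. The smallest was for EIF5A over EIF5A2, which was 5.61 ± 0.30 in controls and higher in LD* animals (median 6.06 against 5.61; n = 8 each, difference 0.39, exact permutation p = 0.021, adjusted p = 0.45), and 6.02 ± 0.52 in HD* animals. EEF1A1 over EEF1A2 was 0.99 ± 0.54 (SD) for the controls, 1.00 ± 0.42 for LD* and 1.07 ± 0.55 for HD* animals. Between HD and VHD animals, a comparison added after seeing the data, this ratio was 0.29 to 1.05 and 1.20 to 1.86. It did not overlap, and its difference of 0.87 had an exact permutation p of 0.029, the smallest that 4 against 4 animals allow, with an adjusted p of 0.20 over 7 pairs.

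Over the 24 animals EIF4G1 and EIF4G3 moved together (Pearson r = 0.93, permutation p = 1e-05, the smallest the 100000 resamples can give; Spearman rho = 0.85). Without the 2 animals farthest from the median of EIF4G1 r was 0.90, and it was 0.93, 0.99 and 0.95 within cohorts 5, 7a and 7b. EEF1A1 and EEF1A2 moved in opposite directions (r = -0.57, permutation p = 0.0033, adjusted p = 0.0077 over 7 pairs; rho = -0.54). That r was -0.42 without the 2 farthest animals and -0.40, -0.51 and -0.89 within cohorts 5, 7a and 7b (7, 9 and 6 animals). EIF1 and its close copy EIF1B had r = 0.60 (permutation, adjusted p = 0.0072; rho = 0.58), and 0.16, 0.69 and 0.0048 within cohorts 5, 7a and 7b. EIF4EBP1 and EIF4EBP2 had r = 0.52 (permutation, adjusted p = 0.015; rho = 0.45) and 0.67 to 0.75 within cohorts. For EIF4A1 and EIF4A2 (r = 0.39), EEF2 and EEF2K (-0.28) and EIF5A and EIF5A2 (-0.016) the adjusted permutation p was 0.089 or more. Cohort 4 held too few animals for a value. Unlike the log ratios, these correlations depend on the scaling of the libraries, and they were computed on the values as deposited. EIF4G1 and EIF4G3 both had negative loadings on the first component of the members (-0.2 and -0.30). The part of a shift shared by many genes in these correlations was not tested.

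**Figure D5:**
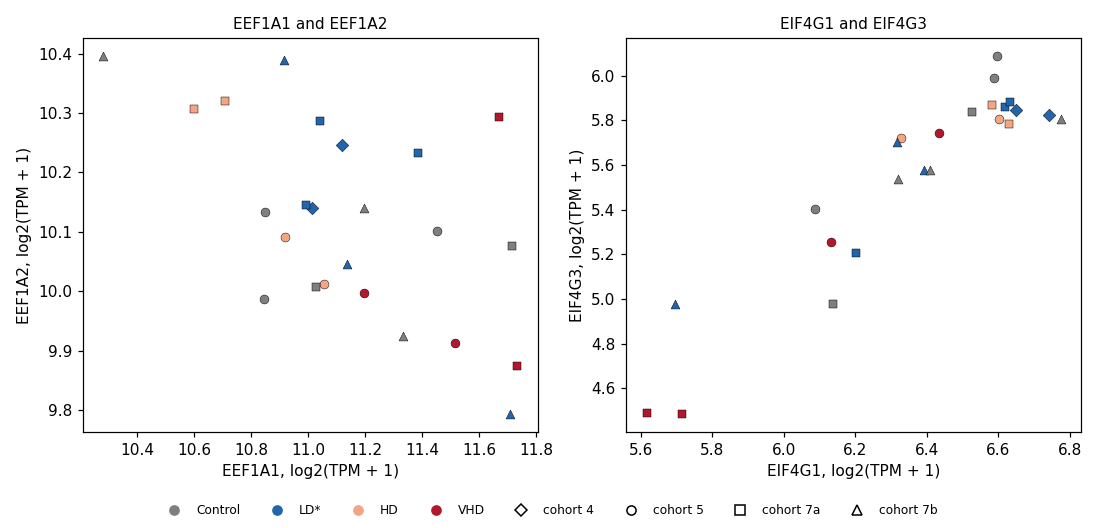
log2(TPM + 1) of EEF1A1 against EEF1A2 (left) and of EIF4G1 against EIF4G3 (right) in the 24 animals; colours mark the consumption group and symbols the cohort. EEF1A1 and EEF1A2 run in opposite directions (r = -0.57), and EIF4G1 and EIF4G3 rise together (r = 0.93), with 2 VHD animals at the bottom left.

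A list of 30 other genes of translation and its control, none of them a member, was read from the same fits. No gene of it passed an adjusted p of 0.05 in HD* against controls, LD* against controls, HD* against LD*, or the slope on intake. Between VHD and HD animals 4 of the 30 fell, where 11.4% of all genes did, and none rose. That is near the share of all genes, so it is not read as a result about the list. At an unadjusted p under 0.05 there were 12 lower and 1 higher, where 24.6% and 8.08% of all genes were, and the median was -0.30 against -0.17 for all genes. The 4 that fell included ABCF1, a ribosome-associated ATPase (-0.71, SE 0.14, limma adjusted p = 0.0096), and LARP1, the protein that binds and represses TOP mRNAs (-0.68, SE 0.19, limma adjusted p = 0.033). The others were MTOR, the kinase that controls LARP1 and the EIF4EBP proteins (-0.72, SE 0.20, limma adjusted p = 0.035), and GIGYF2, a partner of EIF4E2 (-0.66, SE 0.19, limma adjusted p = 0.040). Values under other scalings or without single animals are not given for them.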

How the data were processed

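RNA-Seq values of 24 NAcc core samples were used, 1 per animal, grouped by the drinking category and cohort given per the labels. The authors aligned polyA-selected reads to the MacaM assembly with STAR 2.5.2b, kept uniquely aligned reads and counted them with HTSeq 0.6.1p1; the deposited values are TPM, and how gene lengths entered is not given in the sources used here. Strand and read pairing are described differently in the public record and in the methods of the study. Group differences of log2(TPM + 1) were tested by limma 3.58.1 (R 4.3.3; moderated variances, mean-variance trend) over the 13637 genes averaging 1 TPM or more, with Benjamini-Hochberg adjustment over all of them; fold changes are differences on this scale and understate changes of low genes. Log2 ratios of paralogues and their correlations were tested by permutation (Python 3.11.15, scipy 1.17.1). Only the limma comparisons were tried on simulated data, with noise drawn independently for each gene. A shift shared by many genes was not simulated, and the permutation tests were not tried in this way. Members were named for textbook roles, as paralogue pairs, for the 3 smallest p in a comparison, the 3 highest and 3 lowest levels or the 3 largest SDs; EIF3B, EIF2S2 and the other members named were chosen after their values were seen. The members and lists were chosen with earlier results of these data known. Of the 63 symbols 59 matched RefSeq symbols of a rhesus assembly and 1 a synonym; another build was used by the authors, so no coordinates are given. Alternatives tried were pseudocounts of 0.1 and 8, a floor of 10 TPM and none, TMM (trims of 30% and 5%), median centring, array weights, covariates and leaving out each animal. Replicate numbers follow accession order and only name animals. Animals are separate individuals.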

Additional observations from a re-analysis of the deposited data

Results flagged for a closer look

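In 250 groups of values (50 measures in controls, LD*, HD*, HD and VHD animals) the highest or lowest animal was compared with the rest of its group by Dixon's test. It stood apart in 16, where chance gives about 1 in 20, that is 12.5. Control replicate 6, the animal with few projection neuron markers, was low for EIF3E (71.4 TPM, the other controls 152 to 212) and high for EIF6 (146 TPM, others 90.4 to 106), EEF1A2 (1347 TPM, others 971 to 1127) and EIF2B2 (73.3 TPM, others 46.1 to 57.8). Control replicate 8 was low for EIF2B5 (58.2 TPM, others 72.7 to 85.3), for the EIF2 score (-0.25, others -0.014 to 0.17) and for the EIF4 score (-0.17, others -0.014 to 0.12).

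LD replicate 2 was high for EIF4E (50.2 TPM, the other LD* animals 37.3 to 42.2) and EEF2K (17.7 TPM, others 7.22 to 11.3). LD replicate 5 was high for EEF1B2 (944 TPM, others 462 to 650) and for the EEF1A1/EEF1A2 log ratio (1.92, others 0.53 to 1.15). VHD replicate 4 was low for EIF4A2 (753 TPM, the other HD* animals 1101 to 1328), low for the EIF3 score within VHD animals (-0.12, others 0.019 to 0.029) and high for the EIF1/EIF1B log ratio (2.88, other HD* animals 2.18 to 2.49). VHD replicate 2 was high for EIF2AK2 (7.66 TPM, the other HD* animals 1.83 to 3.89) and low for EIF3F (219 TPM, the other VHD animals 357 to 381).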

How the results depend on the processing

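For HD* or LD* against controls, HD* against LD*, the slope on intake and the cohort test, no alternative gave a member with an adjusted p under 0.05. For VHD minus HD, 6 members passed as reported (14.6% of all genes), 10 with a floor of 10 TPM (23.8%), 33 with array weights (55.8%), 12 with cohort as a covariate (20.2%) and 0 (0%) with the projection neuron marker score as a covariate, which was chosen after seeing the data; leaving out 1 animal gave 0 to 24. For controls of cohort 7b minus 5, array weights gave 8 members (27.9% of all genes). The scores moved with the scaling. Under TMM the EIF3 score difference was 0.13 for HD* minus control, 0.041 for HD* minus LD* and 0.19 for VHD minus HD, the EEF score difference for VHD minus HD was 0.55 (1.23 with each gene scaled to unit SD), and those of EIF1, EIF5 and EIF6, EIF2 and EIF4 were -0.053, -0.037 and -0.068. The EIF2 score kept its direction without EIF2C1 and EIF2C2.

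Among paralogue log ratios, none of 364 alternatives passed, and 31 changed sign. EEF1A1/EEF1A2 for HD* minus control was -0.043 within cohorts 5 and 7a. Leaving out 1 animal gave ranges of -0.076 to 0.19 for that ratio, -0.15 to 0.11 for LD* minus control and -0.043 to 0.20 for HD* minus LD*. It gave -0.080 to 0.16 for EIF5A/EIF5A2, HD* minus LD*, and -0.020 to 0.073 for EIF4G1/EIF4G3, LD* minus control. For EIF4EBP1/EIF4EBP2 it gave -0.091 to 0.068 (LD* minus control), -0.0039 to 0.18 (HD* minus control) and -0.0024 to 0.18 (HD* minus LD*). It gave -0.031 to 0.24 for EEF2/EEF2K, HD* minus LD*, and -0.010 to 0.10 for EIF1/EIF1B, HD* minus control. The cause of these changes was not tested. No paired analysis was made, because each sample is a different animal measured once. TPM hold no depth, so the precision of low members is unknown.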
